A study of Mus musculus with 4 samples.

Results

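The nuclear-encoded subunit genes of the mitochondrial respiratory chain and ATP synthase were examined in mouse Kupffer cells that had received tumour exosomes. The genes were taken by symbol, and the rule itself uses no measured value, although the family was picked with earlier results of these data known. Symbols starting with Nduf followed by a, b, c, s or v and a digit were taken for complex I, Sdha to Sdhd for complex II, Uqcr for complex III, Cox4 to Cox8 for complex IV and Atp5 for complex V, and symbols containing -ps were left out. This gave 91 of the 56004 gene entries, of which 42 belonged to complex I, 4 to complex II, 8 to complex III, 19 to complex IV and 18 to complex V. The study had 4 RNA-seq libraries. In 2 of them, called PRL-3 libraries here, the cells had been given exosomes of MC38-PRL-3 cells. In the other 2, the VT libraries, they had been given exosomes of MC38-VT cells, which served as the control. All cells were exposed for 48 h. MC38 is a mouse colon carcinoma line, and PRL-3 is a phosphatase, the product of Ptp4a3. The labels do not expand VT, state 10 ug of exosomes beside the VT group only, and give no strain, age or sex of the mice. The libraries of a group are labelled as biological replicates with no word on what separates the cultures, so p-values measure the spread between these libraries.

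The respiratory chain passes electrons from NADH (complex I) and succinate (complex II) through complex III and cytochrome c to oxygen at complex IV. Complexes I, III and IV pump protons across the inner mitochondrial membrane, and complex V, the ATP synthase, uses the returning protons to make ATP. Complexes I, III, IV and V are built from subunits encoded in both the nucleus and the mitochondrial DNA, whereas all subunits of complex II are nuclear. In macrophages, the balance between this chain and glycolysis is known to shift with the state of activation.

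Levels were read as FPKM, which counts sequenced fragments relative to transcript length and library depth and allows levels of different genes to be set side by side. The column sums were 675475 to 725599 per library, and the low values implied depths of 17.0 to 18.7 in units of 1e6 fragments. PRL-3 replicate 1 differed most from the rest, with an SD of the log2 ratio over all tested genes of 0.40 to 0.41 in each pair that included it and 0.31 to 0.37 in the other pairs. Of the 6 macrophage markers, all were expressed, with Lyz2 at 5916 to 6831 FPKM. Of the 9 markers of resident Kupffer cells, 5 (Clec4f, Vsig4, Timd4, Marco and Cd163) were listed at 0 in all 4 libraries, the complement genes C1qa, C1qb and C1qc did not exceed 0.38 and Cd5l was at 1.05 to 3.52, so these markers did not bear out the label. Over the marker list, the summed level was 7683 and 7815 in PRL-3 replicates 1 and 2 against 8815 and 8889 in VT replicates 1 and 2 for macrophages, and 10.4 and 8.78 against 6.42 and 5.54 for stellate cells and fibroblasts. Most of the macrophage sum was Lyz2, which was below the VT pair in both PRL-3 libraries, as was Cd14. Fcgr1 was higher in both, at 114.87 and 80.42 FPKM against 69.47 and 76.65. The other 3 macrophage markers overlapped between the groups. In the stellate list, Dcn gave the largest part and overlapped (6.63 and 4.32 FPKM against 5.44 and 4.65). Acta2, Col1a1, Col1a2 and Col3a1 were higher in both PRL-3 libraries, at 2.61 FPKM or less. The part of these cell types in the results below was not tested. In bulk RNA, fewer cells of a type cannot be told apart from less RNA per cell. Hepatocyte, endothelial, lymphocyte and epithelial lists summed to 0.55 or less in each library. Of the neutrophil list, S100a8 was at 216 to 309 FPKM, S100a9 was at 0.40 in 1 library and the other 4 genes were listed at 0 in all libraries.

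The ubiquitous subunit genes taken by the rule were all expressed. A level of 1 FPKM or more in at least 2 libraries, the condition for testing, was met by 80 of the 91 entries (38, 4, 8, 13 and 17 for complexes I to V). Atp5b, which encodes the catalytic beta subunit of ATP synthase, had the highest mean, at 629 FPKM over the 4 libraries. It was followed by Cox4i1 (484 FPKM), a subunit of complex IV, and Atp5l (412 FPKM), the g subunit of the ATP synthase membrane part. Within complex I, the highest means were those of the accessory subunit genes Ndufb8 (186 FPKM) and Ndufa12 (170 FPKM), and of Ndufa4 (165 FPKM). The protein of Ndufa4 is now placed in complex IV, although it is counted here under complex I by its symbol. In complex III, Uqcrq (308 FPKM), Uqcrb (177 FPKM) and Uqcr10 (173 FPKM) led, and all 3 encode small subunits.

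Where a subunit has isoforms, the ubiquitous one dominated. Cox4i1 was at 446 to 516 FPKM and Cox4i2, known from lung, at 0.58 to 1.07. Cox6a1 was at 274 to 323 FPKM and its heart and muscle counterpart Cox6a2 at 10.8 to 21.5. Cox7a2 was at 91.6 to 118 FPKM and Cox7a1, also a heart and muscle form, at 0.97 to 3.66. Cox6b1 (139 to 220 FPKM), Cox7b (66.2 to 92.6) and Cox8a (281 to 323) were expressed, while Cox6b2, Cox7b2, Cox8b and Cox8c were listed at 0 in all 4 libraries. Ndufa4l2, a paralogue of Ndufa4, was at 0.71 FPKM or less. The other entries under the testing condition were Ndufa11b and Ndufb11b, at 0.29 or less, and Ndufs6b, Cox6c2 and a second entry named Atp5o, listed at 0 throughout. All 11 entries not tested were thus copies, isoforms or a repeated entry of a subunit whose ubiquitous gene was expressed. Ndufb4 (11.1 to 15.7 FPKM) and Ndufb4c (71.5 to 128 FPKM) have names of the same subunit, and how fragments were shared between them is uncertain (both named after their values were seen).

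The question of the design was whether exosomes of MC38-PRL-3 cells changed the RNA of the recipient cells relative to exosomes of MC38-VT cells. For the respiratory chain subunits, no change passed the test. By limma with adjustment over all 12193 genes tested, 0 of the 80 subunit genes were called at an adjusted p under 0.05, where 0.0492% of all tested genes were called (6 genes, 0.0246% higher and 0.0246% lower). At an unadjusted p under 0.05 there were 3 subunit genes (Cox6a2 with a higher mean after PRL-3 exosomes, Atp5g2 and Atp5j2 with a lower one), against 9.51% of all tested genes (5.66% higher and 3.85% lower). The mean was lower in the PRL-3 libraries for 56 of the 80 genes, against 46.6% of all tested genes. The median log2 difference, taken as PRL-3 minus VT after adding 1 to each FPKM throughout, was -0.09 for the subunit genes and 0.02 for all tested genes. The median of the subunit genes rested on PRL-3 replicate 1, as it was 0.04 without that library, equal at 2 decimals to the 0.04 of all genes in that fit.

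Separation of the groups was no more frequent among subunit genes than among all genes. The PRL-3 pair lay entirely above the VT pair for 10 of the 80 genes (12.5%), where the share over all tested genes was 24.3%. It lay entirely below for 15 (18.8%), where the share was 18.0%. The groups overlapped for the other 55. The summed level of the 80 genes was 9715 and 11451 FPKM in PRL-3 replicates 1 and 2, and 11160 and 11137 FPKM in VT replicates 1 and 2. PRL-3 replicate 1 was thus the lowest of the 4 and PRL-3 replicate 2 the highest, as they also were in the sum over all genes. As a share of the sum over all genes, the 91 entries held 1.439% and 1.578% in PRL-3 replicates 1 and 2. The share was 1.56% and 1.576% in VT replicates 1 and 2, so by share only PRL-3 replicate 1 stood apart.

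**Figure D1:**
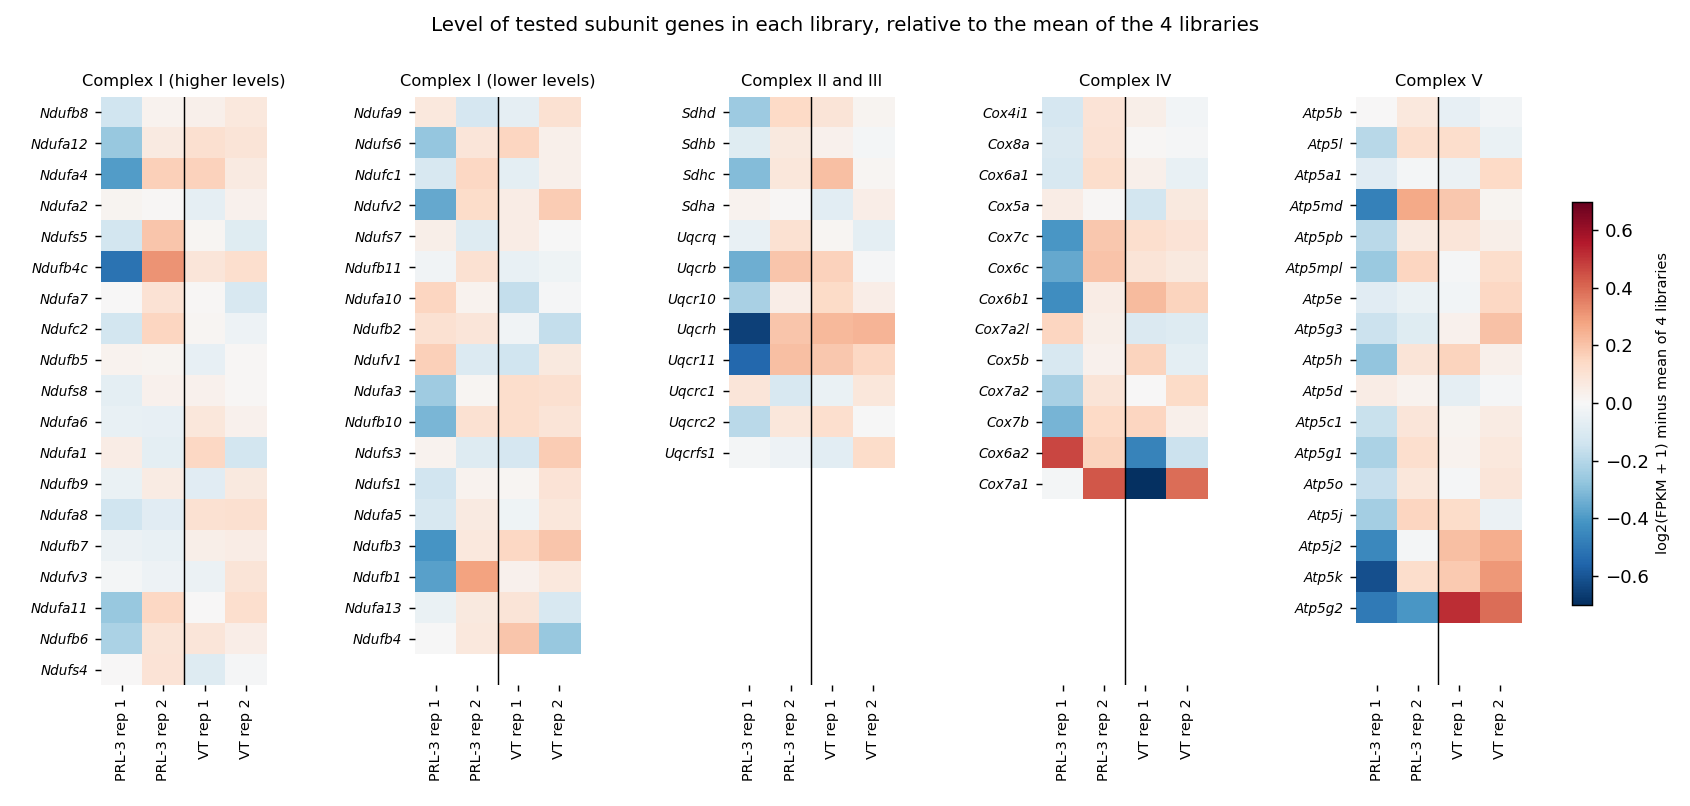
Heatmap of the tested subunit genes other than 1 not reported here (rows, by complex and mean level) in the 4 libraries (columns), coloured by log2(FPKM + 1) minus the mean of the 4 libraries for that gene. The blue cells are gathered in the column of PRL-3 replicate 1, which was the lowest library for 51 of the 80 genes, and Atp5g2 is the row with both PRL-3 libraries clearly blue.

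PRL-3 replicate 1 had the lowest of the 4 values for 51 of the 80 subunit genes (63.8%), against 33.8% of all tested genes. VT replicate 1 was lowest for 18, VT replicate 2 for 6 and PRL-3 replicate 2 for 5. By complex, PRL-3 replicate 1 was lowest for 19 of the 38 genes of complex I, 3 of 4 of complex II, 5 of 8 of complex III, 9 of 13 of complex IV and 15 of 17 of complex V. Relative to the mean of the other 3 libraries, its median log2 level was -0.08, -0.22, -0.28, -0.15 and -0.26 for complexes I to V, and -0.01 over all tested genes.

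Complex I oxidises NADH, and its nuclear genes comprise core subunits that carry the flavin and the iron-sulfur clusters or bind ubiquinone, and a larger set of accessory subunits. The nuclear core subunit genes were close in all libraries, with summed levels of 457 and 474 FPKM in PRL-3 replicates 1 and 2, and 464 and 490 FPKM in VT replicates 1 and 2. Ndufv1, the flavin-bearing subunit, was at 59.0 and 49.1 FPKM against 47.6 and 55.1, and the groups overlapped. Ndufv2, its iron-sulfur partner, was at 49.5 and 69.7 FPKM against 66.2 and 72.2, with only PRL-3 replicate 1 set apart. Ndufs1 (44.0 to 51.8 FPKM), Ndufs3 (45.1 to 55.7), Ndufs7 (58.4 to 64.7) and Ndufs8 (84.2 to 90.3) also overlapped between the groups. The Ndufs1 gene overlaps the far more abundant Eef1b2 (mean 580 FPKM) on the opposite strand, so its level may hold fragments of Eef1b2.

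The 31 accessory subunit genes of complex I had a median log2 difference of -0.05, as had the core genes. Of these 31, the PRL-3 pair was entirely higher for 5 (16.1%, against 24.3% of all tested genes) and entirely lower for 7 (22.6%, against 18.0%). Ndufb2, an accessory subunit gene, was at 57.5 and 56.7 FPKM with PRL-3 exosomes and 52.4 and 47.5 with VT exosomes, the largest positive difference within complex I (log2 difference 0.19, standard error 0.10, adjusted p = 0.61). Ndufb2 overlaps the less abundant Braf on the opposite strand, and their fragments cannot be told apart without strand. Ndufa10 was at 61.0 and 55.9 FPKM against 48.9 and 54.5, likewise higher in both PRL-3 libraries (0.17, standard error 0.11, adjusted p = 0.65). Ndufa7 was at 102 and 109 FPKM against 102 and 93.8, with PRL-3 replicate 1 just below VT replicate 1. The most abundant accessory genes lay the other way. Ndufb8 was at 169 and 189 FPKM with PRL-3 exosomes and 191 and 196 with VT exosomes, and Ndufa12 at 141 and 177 against 183 and 180, each with both PRL-3 libraries lower and with PRL-3 replicate 1 the lowest (adjusted p = 0.77 and 0.68). Ndufa4 was at 124 and 183 FPKM against 182 and 170, so that only PRL-3 replicate 1 was low.

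Complex II, succinate dehydrogenase, also serves the citrate cycle. Sdha, its flavoprotein, was at 68.6 and 67.8 FPKM with PRL-3 exosomes and 64.0 and 69.8 with VT exosomes. Sdhb, the iron-sulfur protein, was at 70.1 and 77.9 FPKM against 75.7 and 73.6. Sdhc and Sdhd encode the membrane anchors. Sdhc was at 54.5 and 71.4 FPKM against 78.2 and 68.1, and Sdhd at 107 and 141 against 136 and 129. All 4 genes overlapped between the groups, and both anchor genes had their lowest value in PRL-3 replicate 1 (adjusted p = 0.69 for Sdhc and 0.84 to 0.98 for the other 3). The median log2 difference of complex II was -0.06.

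**Figure D2:**
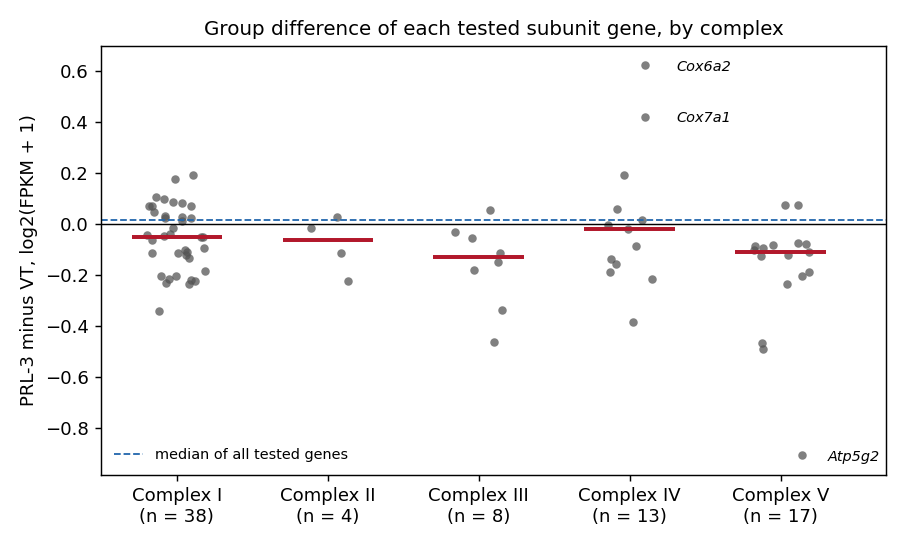
Group difference (PRL-3 minus VT, log2(FPKM + 1)) of each tested subunit gene, one point per gene, by complex; red bars are medians over the genes of a complex and the dashed line is the median of all 12193 tested genes (0.02). The medians lie between -0.13 (complex III) and -0.02 (complex IV), with Atp5g2, Cox6a2 and Cox7a1 at the extremes.

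Complex III passes electrons from ubiquinol to cytochrome c. Its larger subunits overlapped between the groups. Uqcrfs1, the Rieske iron-sulfur protein, was at 63.0 and 62.0 FPKM with PRL-3 exosomes and 60.4 and 69.6 with VT exosomes, and the group of Uqcrc1, Uqcrc2 and Uqcrfs1 summed to 259 FPKM in each PRL-3 library against 264 and 276 FPKM in VT replicates 1 and 2. The 5 genes of small subunits summed to 743 and 992 FPKM in PRL-3 replicates 1 and 2, and 979 and 927 FPKM in VT replicates 1 and 2. Uqcrh, the hinge protein that helps to dock cytochrome c1 and cytochrome c, was at 82.3 and 149 FPKM with PRL-3 exosomes and 152 and 153 with VT exosomes. PRL-3 replicate 1 thus held 54.2% of the mean of the other 3, which lay close together (log2 difference -0.46, standard error 0.28, adjusted p = 0.65). Uqcr11, the smallest subunit, was at 78.5 and 134 FPKM against 132 and 128, and overlapped between the groups because PRL-3 replicate 2 was the highest (adjusted p = 0.70; named after its values were seen). Uqcrq was at 297 and 331 FPKM against 311 and 294, with no such drop. Uqcrb was at 138 and 201 FPKM against 196 and 174, and Uqcr10 at 147 and 177 against 189 and 178.

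The bases before the transcription start are shown for 4 genes on which the comparison turned, which are Uqcrh, Uqcr11 and Atp5k (3 of those low in PRL-3 replicate 1) and Atp5g2 (low in both PRL-3 libraries). They are the 250 bases before the RefSeq start in GRCm38.p6, 5′ to 3′ on the strand of the gene. For Atp5g2 the whole block lies inside the gene span of the GENCODE annotation (102662864 to 102672352), which places the start further upstream. The GENCODE span of Atp5k (108433244 to 108434448) also reaches into its block and takes in the NRF1 letters marked there. Capitals mark the motifs searched for on both strands, which were CGCATGCG of NRF1, an activator of many respiratory genes, CCGGAAG of the ETS family, to which the respiratory gene activator GABP belongs, and AAGATGGC of YY1.
Uqcrh (chr4:116075071-116075320, minus strand): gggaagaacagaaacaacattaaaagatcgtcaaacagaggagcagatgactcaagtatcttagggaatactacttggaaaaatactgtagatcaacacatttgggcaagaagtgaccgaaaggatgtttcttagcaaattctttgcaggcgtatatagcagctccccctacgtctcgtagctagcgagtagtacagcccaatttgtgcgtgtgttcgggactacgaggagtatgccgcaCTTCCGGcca
Uqcr11 (chr10:80406822-80407071, minus strand): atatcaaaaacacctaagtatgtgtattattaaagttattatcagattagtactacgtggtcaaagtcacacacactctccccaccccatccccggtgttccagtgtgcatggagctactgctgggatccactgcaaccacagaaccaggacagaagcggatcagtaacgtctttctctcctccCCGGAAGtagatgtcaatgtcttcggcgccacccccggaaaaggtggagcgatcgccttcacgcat
Atp5k (chr5:108434400-108434649, minus strand): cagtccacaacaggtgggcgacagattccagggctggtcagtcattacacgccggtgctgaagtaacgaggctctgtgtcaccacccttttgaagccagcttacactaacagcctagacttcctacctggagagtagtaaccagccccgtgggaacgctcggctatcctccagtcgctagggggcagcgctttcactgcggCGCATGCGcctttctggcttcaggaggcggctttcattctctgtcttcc
Atp5g2 (chr15:102671048-102671297, minus strand): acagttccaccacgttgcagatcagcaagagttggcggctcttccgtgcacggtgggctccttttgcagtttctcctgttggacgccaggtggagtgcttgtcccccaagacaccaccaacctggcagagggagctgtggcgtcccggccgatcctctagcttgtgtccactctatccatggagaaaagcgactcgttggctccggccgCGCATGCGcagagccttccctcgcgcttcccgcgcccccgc
The ETS letters begin 10 bases before the start in Uqcrh, on the opposite strand, and 66 bases before it in Uqcr11. The NRF1 letters begin 49 bases before the start in Atp5k and 41 bases before it in Atp5g2. In Uqcr11 they begin 5 bases before the start and run across it, so they are not in capitals. Promoter windows of 300 bases (250 before and 50 after the start) were given for 69 of the 91 entries. In these windows Atp5k also held the ETS letters, 13 bases after the start. Atp5j2, lower in both PRL-3 libraries and lowest in PRL-3 replicate 1, held only the YY1 letters, 24 bases after the start. The Atp5j2 window lies wholly inside the GENCODE span of that gene (145183698 to 145192062). The ETS motif was in 16 of the 69 windows (23.2%, against 9.12% of 27025 promoters) and the YY1 motif in 9 (13.04%, against 2.88%). The NRF1 motif was in 8 (11.6%, against 1.91%), and with any base in place of its T (CGCANGCG, which includes the first form) in 24 (34.8%, against 8.42%). Over the 8685 promoters of tested genes, the shares were 20.7% for ETS, 5.45% for YY1, 4.33% for NRF1 and 19.1% for its wider form. A match of letters is a description of the sequence and not a measured binding site.

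Complex IV reduces oxygen to water. Its nuclear subunits surround the catalytic core made from mitochondrial DNA. The most abundant genes overlapped between the groups. Cox4i1 was at 446 and 516 FPKM with PRL-3 exosomes and 497 and 477 with VT exosomes, Cox8a at 281 and 323 against 304 and 300, and Cox6a1 at 274 and 323 against 303 and 286. Cox5b was at 165 and 183 FPKM against 200 and 170. For each of the 4, PRL-3 replicate 1 was the lowest library (adjusted p = 0.85 or more). Cox6b1, a subunit on the intermembrane side, was at 139 and 195 FPKM against 220 and 210, with both PRL-3 libraries lower (log2 difference -0.38, standard error 0.17, adjusted p = 0.56). Cox7a2 was at 91.6 and 114 FPKM against 107 and 118, and Cox7b at 66.2 and 91.7 against 92.6 and 85.3.

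Of the heart and muscle isoform genes of complex IV, Cox8b was listed at 0 and Cox6a2 and Cox7a1 had low levels. Cox6a2 was at 21.5 and 17.1 FPKM with PRL-3 exosomes and 10.8 and 13.7 with VT exosomes, or about 161, 144, 90 and 110 fragments in PRL-3 replicates 1 and 2 and VT replicates 1 and 2. The gene is represented by an assembled transcript, so its annotated length of 680 bases may not be the one the authors used. Both PRL-3 libraries were higher, with the largest positive difference among the 80 genes (log2 difference 0.62, standard error 0.16, limma unadjusted p = 0.0091, adjusted p = 0.46). Cox7a1 was at 2.42 and 3.66 FPKM against 0.97 and 3.52, or only about 8 and 15 fragments against 4 and 13. The groups overlapped, and the difference of 0.42 had a standard error of the same size (0.42). It rested on VT replicate 1, being -0.18 without that library and 1.02 without VT replicate 2. Cox7a2l, a protein that links complexes III and IV into supercomplexes, was at 199 and 185 FPKM with PRL-3 exosomes and 167 and 168 with VT exosomes, again with both PRL-3 libraries higher (0.19, standard error 0.10, adjusted p = 0.60). The median log2 difference of complex IV was -0.02 and turned to 0.00 and 0.04 when libraries were scaled by their nuclear sum or quantile normalised, so no direction is given for it.

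Complex V consists of the F1 head and stalk, which make ATP, a ring of c subunits, a peripheral stalk and small membrane subunits. Its median log2 difference was -0.11, and 0.04 without PRL-3 replicate 1. The 5 genes of the head and central stalk were close in all libraries, with sums of 1521 and 1599 FPKM in PRL-3 replicates 1 and 2, and 1518 and 1620 FPKM in VT replicates 1 and 2. Atp5b, the catalytic beta subunit, was at 629 and 662 FPKM with PRL-3 exosomes and 604 and 621 with VT exosomes. Atp5a1, the alpha subunit, was at 353 and 369 FPKM against 363 and 411. Atp5c1, the gamma subunit of the rotating stalk, was at 154 and 183 FPKM against 174 and 180. None of the 3 passed (adjusted p = 0.82 to 0.87). The 4 peripheral stalk genes and the 5 genes of small membrane subunits each had their lowest value in PRL-3 replicate 1. The small membrane subunit genes summed to 922 and 1295 FPKM in PRL-3 replicates 1 and 2, and 1268 and 1213 FPKM in VT replicates 1 and 2. Atp5k, the e subunit that helps ATP synthases pair into dimers, was at 48.3 and 81.5 FPKM with PRL-3 exosomes and 84.9 and 92.5 with VT exosomes. Atp5j2, the f subunit, was at 78.0 and 106 FPKM against 124 and 128. As for Atp5k, both PRL-3 libraries were lower, and the unadjusted limma p of Atp5j2 was 0.026 (adjusted p = 0.50). Atp5l was at 359 and 446 FPKM against 447 and 398.

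The largest difference among the 80 genes was that of a c-ring gene. Atp5g1, Atp5g2 and Atp5g3 encode the same mature c subunit with different import sequences. Atp5g2 was at 5.49 and 5.89 FPKM with PRL-3 exosomes and 12.1 and 11 with VT exosomes, or about 32, 40, 81 and 69 fragments in PRL-3 replicates 1 and 2 and VT replicates 1 and 2. Both PRL-3 libraries were low and close to each other, as were both VT libraries at a higher level, 5.69 ± 0.28 against 11.5 ± 0.76 FPKM (SD, n = 2 each). The log2 difference was -0.91 (standard error 0.12, limma unadjusted p = 0.00034, adjusted p = 0.23), and it stayed between -0.84 and -0.97 when any 1 library was left out. It was the lowest adjusted p among the 80 genes, and it did not pass. Atp5g3 was at 178 and 187 FPKM against 202 and 229, with both PRL-3 libraries lower (-0.24, standard error 0.11, adjusted p = 0.58). Atp5g1 was at 139 and 176 FPKM against 165 and 171, and the groups overlapped. Atp5g2 gave only a small part of the c-ring sum, which was 323 and 369 FPKM in PRL-3 replicates 1 and 2, and 379 and 411 FPKM in VT replicates 1 and 2. The gene lies on chromosome 15 (102662864 to 102672352, minus strand, GRCm38) and is represented in the files by an assembled transcript, so its annotated length of 586 bases may not be the one the authors used.

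**Figure D3:**
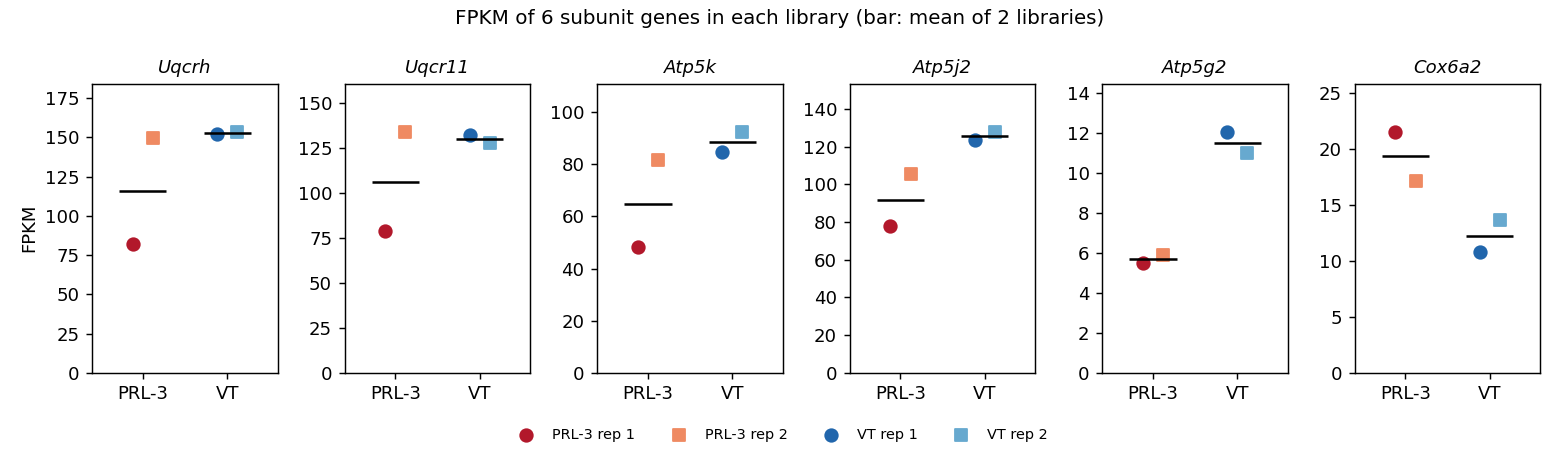
FPKM of 6 subunit genes in each library, with PRL-3 in red tones and VT in blue tones (circles replicate 1, squares replicate 2, black bars the mean of the 2 libraries of a group). For Uqcrh, Uqcr11 and Atp5k only PRL-3 replicate 1 is far from the rest, whereas for Atp5g2 the PRL-3 pair (5.49 and 5.89) lies well below the VT pair (12.1 and 11).

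The low values of PRL-3 replicate 1 were gathered in the genes with short transcripts. Many subunits of the chain are small proteins, and the tested genes had a median annotated transcript length of 737 bases, against 2462 bases over all tested genes with an annotation. The 14 subunit genes of up to 500 bases had a median of -0.43 in PRL-3 replicate 1 relative to the mean of the other 3 libraries on the log2 scale. The median was -0.17 for the 41 genes of 500 to 1000 bases, -0.06 for the 19 of 1000 to 2000 bases and -0.04 for the 6 longer ones. The medians of PRL-3 replicate 2 were 0.18, 0.12, 0.09 and 0.03 in the same order, and the VT libraries lay between -0.05 and 0.19. Up to 500 bases, VT replicates 1 and 2 were at 0.19 and 0.16, much like PRL-3 replicate 2. Each library is set against the mean of the others, so a low PRL-3 replicate 1 by itself raises the values of the rest. Across the 80 genes, the rank correlation of length with the deviation of PRL-3 replicate 1 was 0.39 (Spearman rho), given as a description since these genes share their libraries.

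Other genes of like length deviated in the same direction, by less. Of the tested genes outside the chain, the 388 of up to 500 bases had a median of -0.12 in PRL-3 replicate 1, the 1188 of 500 to 1000 bases -0.05 and the 7066 above 2000 bases 0.00. Among all tested genes with a mean of 20 FPKM or more, a set that includes the subunit genes, the 144 of up to 500 bases had a median of -0.23 and the 615 of 500 to 1000 bases -0.13. The fitted fragment length was 240 and 210 bases in PRL-3 replicates 1 and 2 and 210 and 250 bases in VT replicates 1 and 2. VT replicate 2 had a median of 0.16 for the subunit genes of up to 500 bases. Whether fragment length had a part in the low values of PRL-3 replicate 1 was not tested.

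**Figure D4:**
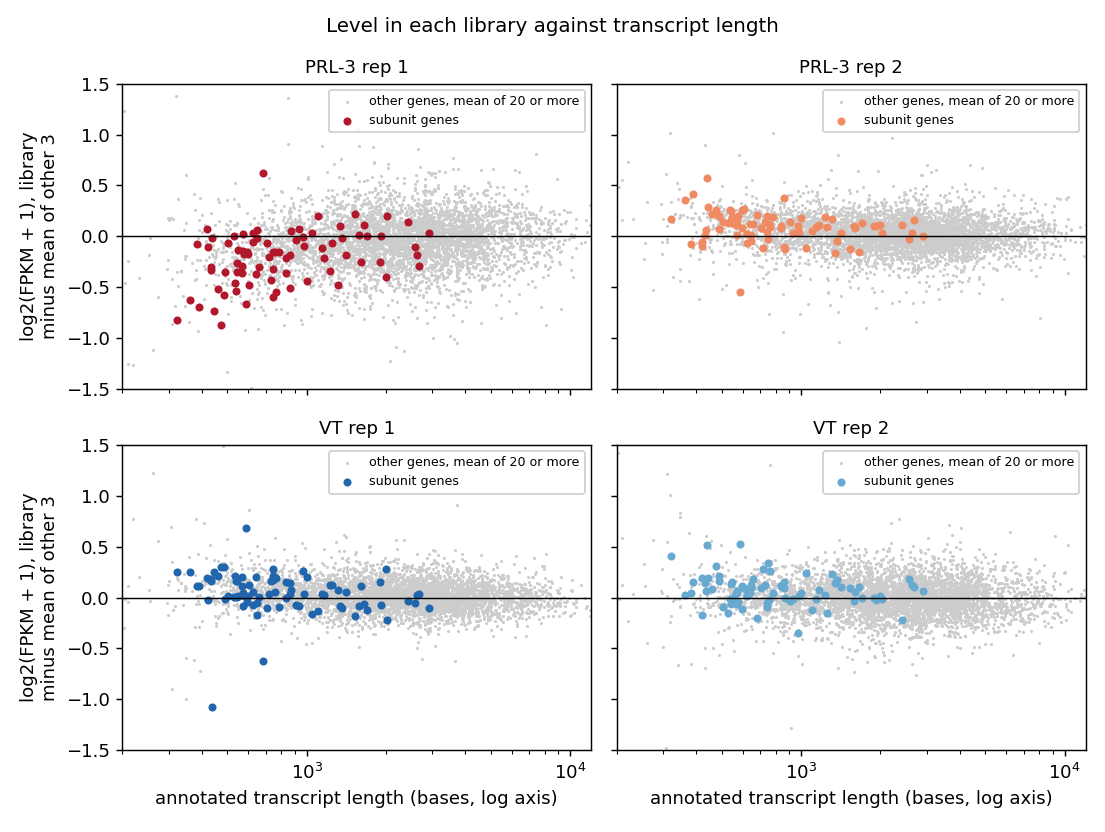
Level in each library relative to the mean of the other 3 (log2(FPKM + 1)) against annotated transcript length in bases (log axis), for the 80 tested subunit genes (coloured) and all other tested genes with a mean of 20 FPKM or more (grey). In PRL-3 replicate 1 the subunit genes fall below 0 at short lengths (median -0.43 up to 500 bases). The medians there are 0.18 in PRL-3 replicate 2, 0.19 in VT replicate 1 and 0.16 in VT replicate 2. PRL-3 replicate 1 is part of the reference of each of these.

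Which PRL-3 library was used decided what could be called. Without PRL-3 replicate 2, 4 subunit genes were lower by limma, Uqcrh, Atp5k, Uqcr11 and Atp5j2 (adjusted p = 0.036 to 0.049, log2 differences -0.89, -0.86, -0.72 and -0.68), against 0.611% of all tested genes called lower in that fit. Without PRL-3 replicate 1, 0 of the 80 were called against 0.0167% of all tested genes (2, both lower). In that fit the log2 difference of Atp5g2 was -0.86 and that of Cox6a2 0.46, while those of Uqcrh and Uqcr11 were -0.03 and 0.04. In each of these fits 1 group has 1 library, which is assumed to vary like the other group.

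The other genes of the pathway gave no call either. Of 50 assembly factor genes, which help to build the complexes, 49 were tested. By limma 0 were called and 2 were lower at an unadjusted p under 0.05, and their median log2 difference was -0.05. Those 2 were Pet100 and Coa7 of complex IV (log2 differences -0.66 and -0.55, adjusted p = 0.45 and 0.46; named after their values were seen). Tmem126a, a complex I assembly factor, was at 65.3 to 74.6 FPKM and Cox17, the copper chaperone of complex IV, at 226 to 269. Of the 8 subunits and carriers whose symbols fall outside the rule, 7 were tested and 0 called (median -0.08). Ndufab1, the acyl carrier subunit of complex I, was at 106 and 137 FPKM with PRL-3 exosomes and 137 and 140 with VT exosomes, and Atpif1, the ATP synthase inhibitor, at 332 and 433 against 420 and 368. In both genes PRL-3 replicate 1 was again the lowest library.

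All 13 subunit genes of the mitochondrial DNA were tested and 0 called (median 0.00, with 1, mt-Nd4l, lower at an unadjusted p under 0.05). Their summed level was 43087 and 59563 FPKM in PRL-3 replicates 1 and 2, and 49870 and 52088 FPKM in VT replicates 1 and 2, the same order at the extremes as for the nuclear subunits. A large part of each sum was mt-Atp8, at 19900 and 32431 FPKM against 25102 and 25064. Its annotated length of 204 bases is below every fitted fragment length, so its level and the sum are uncertain. The next highest, mt-Co1, was at 9886 and 10255 FPKM against 9667 and 10468. Of the 17 citrate cycle genes, 0 were called and 13 had a mean that was lower with PRL-3 exosomes (median -0.07), against 46.6% of all tested genes. The PRL-3 pair was entirely lower for 6, against 18.0% of all tested genes, and entirely higher for 1, against 24.3%. The latter was Dld, the lipoamide dehydrogenase, and the 1 gene at an unadjusted p under 0.05 was Fh1, fumarate hydratase, which was lower (log2 difference -0.29, adjusted p = 0.52; both named after their values were seen). Cs, citrate synthase, was at 135 and 139 FPKM against 146 and 147, and Mdh2, malate dehydrogenase, at 241 and 248 against 248 and 264. Of 13 regulators of respiratory genes, 12 were tested and 0 called (median 0.05, with 1 higher at an unadjusted p under 0.05). That gene was Nrf1, which encodes the factor whose motif was searched for above, at 24.4 and 20.7 FPKM with PRL-3 exosomes and 15.99 and 14.6 with VT exosomes (named after its values were seen). Both PRL-3 libraries were higher, by 0.53 on the log2 scale (standard error 0.12, limma adjusted p = 0.45). Tfam, which maintains and transcribes the mitochondrial DNA, was at 36.1 and 40.4 FPKM with PRL-3 exosomes and 40.02 and 37.0 with VT exosomes, and Gabpa, a subunit of GABP, at 26.7 and 32.4 against 28.6 and 29.3.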

How the data were processed

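RNA was extracted with TRIzol, and mRNA was captured on beads, fragmented and primed with random hexamers. Expression was deposited by the authors as FPKM, as far as can be told, because the values were not whole and their sums differed between libraries, although no source names the unit. RSEM, DESeq2 and mm10 appear in the submitters' processing notes without versions. The aligner and annotation were not given in the sources used here, and strand is not stated, so 23 of the 91 entries that overlap another expressed gene may hold its fragments. Positions and lengths (the median of a gene's basic transcripts) were taken from GENCODE M21 on GRCm38, where all 91 entries matched. Of these, 18 carried an identifier of an assembled transcript.

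Genes that reached 1 FPKM in 2 libraries were tested on log2(FPKM + 1) with limma 3.58.1 in R 4.3.3 (mean-variance trend, robust moderation), with Benjamini-Hochberg adjustment over all 12193 genes. The procedure was tested on simulated data. The depth was fitted from low values of single-transcript genes, of which 89.5% to 92% were whole within 0.2 fragments, against 40% by chance. Fragment numbers of single genes are approximations. The rule for the members uses symbols alone, but the choice of this gene family, of the gene lists and of the motifs was made with earlier results of these data known. Genes were named by rule, as the 3 of highest mean per complex, the core subunits, isoform sets, called genes and the 5 largest differences in each direction at a mean of 5 or more, and the 2 of highest mean in each other list. Promoter sequences are those of RefSeq. The values of 1 gene are not reported here on their own. Alternatives were other pseudocounts, filters and scalings, a fit without trend, a replicate block, and leaving out each library.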

Additional observations from a re-analysis of the deposited data

How the results depend on the processing

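With 2 libraries per group, single libraries decided more than any processing choice. When each library was left out in turn, the number of subunit genes called lower ranged from 0 to 4, and only the fit without PRL-3 replicate 2 made calls. The median log2 difference of the subunit genes ranged from -0.15 to 0.040, that of complex I from -0.092 to 0.023, of complex II from -0.20 to 0.040, of complex III from -0.28 to -0.0056, of complex IV from -0.13 to 0.084 and of complex V from -0.27 to 0.039, in each case lowest without PRL-3 replicate 2 except for complex I (without VT replicate 1) and highest without PRL-3 replicate 1. The number of genes with PRL-3 entirely above VT ranged from 12 to 36 and with PRL-3 entirely below from 18 to 53, partly because 3 libraries separate more easily than 4. Of all tested genes, 34.3% to 43.9% lay above and 28.8% to 39.9% below in these fits. The 36 of 80 above, without PRL-3 replicate 1, stood beside 43.9% of all tested genes. The 53 of 80 below, without PRL-3 replicate 2, stood beside 39.9%. Without PRL-3 replicate 2, Uqcrh, Atp5k, Uqcr11 and Atp5j2 passed the threshold (-0.89, -0.86, -0.72 and -0.68).

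Under the other pseudocounts, filters and scalings and without the trend, 0 subunit genes were called. Over all genes, 6 were called in the reported fit, 0 without a filter, 1 with either other pseudocount or the stricter filter, 2 without the trend, 7 under each other scaling and 15 with the replicate block. The replicate numbers share no stated culture or day, and same-numbered libraries did not deviate together (correlation -0.06). With the block, Atp5g2 had an adjusted p of 0.10 (limma). Of the 41 named and tested genes, none of them called, up to 3 changed sign under another scaling, and 14 changed sign without PRL-3 replicate 1. At 2 libraries per group, small differences could not be detected, and FPKM of short transcripts rest on fewer fragments at a given level.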
